A study of Mus musculus with 27 samples.

Results

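Tumour macrophages and tumour neutrophils were compared in mammary tumours that had received control antibody only. The comparison used every library labelled as control macrophages (4) or control neutrophils (4), which is 8 of the 27 libraries of the series, and was made over all genes of the deposited table. All animals were K14cre;Cdh1F/F;Trp53F/F mice, in which Cre under the keratin 14 promoter removes E-cadherin and p53 from epithelial cells so that mammary tumours form de novo. The mice of these 8 libraries had no cisplatin and were killed when the tumour measured 100 mm2. Macrophages and neutrophils were sorted from the tumours by flow cytometry, and 10 ng of total RNA from each sorted sample was made into a library. The remaining libraries came from 3 treatments, namely anti-CSF-1R antibody alone, cisplatin given alongside the control antibody, and cisplatin given alongside anti-CSF-1R (the combination). They entered the same fit to estimate the spread, and the cisplatin and combination groups served to ask whether the difference between the cell types was the same there. Nothing in the labels says that the libraries of a group came from separate mice, so the p-values measure only how far these samples vary, and that variation may be technical. Replicates carry no number in the labels and are numbered here in order of deposition, and no pairing was taken from that order.

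Macrophages are long-lived tissue phagocytes whose survival depends on signalling through the CSF-1 receptor, and they take up dying cells, degrade them in lysosomes and present antigen. Neutrophils are short-lived granulocytes that leave the bone marrow under G-CSF, follow CXCR2 ligands and formyl peptides into tissue, and carry preformed granule proteins and an oxidase that makes superoxide. In mammary tumours both populations are known as sources of cytokines, proteases and growth factors.

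Values are normalised read counts of 9996 genes, that is, reads divided by a size factor per library. Reads over the listed genes ran from 1622583 to 2703951 in the macrophage libraries and from 1085519 to 2110639 in the neutrophil libraries, and the normalised totals ran from 1238560 to 1484800 and from 1870810 to 2017840. Decimal points missing from many of the smaller values were restored from the whole-read step of each library, and 5.64% of the values of the 8 libraries, whose place was uncertain, were left out. A gene with fewer than 4 values in a group below lost the others in this way. Across tested genes the log2 values of any 2 macrophage libraries correlated with Pearson's r of 0.924 to 0.955, those of any 2 neutrophil libraries with 0.941 to 0.957, and those across the cell types with 0.684 to 0.796. These are correlations across genes, which are not independent replicates. The first principal component of 6390 genes held 74.1% of the variance and separated the cell types. The second held 7.65% and set replicates 1 and 2 apart from replicates 3 and 4 in both cell types. For 68.1% of the values of the 8 libraries several decimal places were possible. The choice among them leaned on the level of the same cell type. Its part in the likeness within a cell type, in the first component and in the spread within a group was not tested. Of 69984 values kept both with and without use of the groups, 4 were placed differently. Values with a single possible place could not differ, and values kept only through the groups are not in this count. Without the groups 11.6% of the values of the 8 libraries were left out, against 5.64% with them.

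Macrophages and neutrophils differed at more of the tested genes than not. Of 9298 genes tested, 4917 (52.9%) differed at a Benjamini-Hochberg adjusted p under 0.05 in limma, 2569 (27.6%) being higher in macrophages and 2348 (25.3%) higher in neutrophils, and 5439 (58.5%) had an unadjusted p under 0.05. These shares are the background against which every count of a gene list below should be read. Differences are given as macrophages minus neutrophils on the log2(value + 1) scale, which understates the change of low genes. The median difference over all tested genes was 0.14. Scaling each library to the same total over the listed genes moved that median to 0.64 and the calls to 4144 higher in macrophages and 1480 higher in neutrophils, and trimmed-mean factors moved it to 0.02 with 2170 and 2608. Small differences therefore depend on the scaling, and lists whose median changes sign under one of 3 other scalings are named where they occur. Of 44 lists with a median, 20 had one that changed sign or moved by over 1.5 times with quantile scaling, 25 with same-total scaling and 6 with trimmed-mean factors, and 4, 6 and 2 of these changed sign. The median SD between libraries of a group was 0.37 in macrophages and 0.38 in neutrophils on the same scale.

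**Figure D1:**
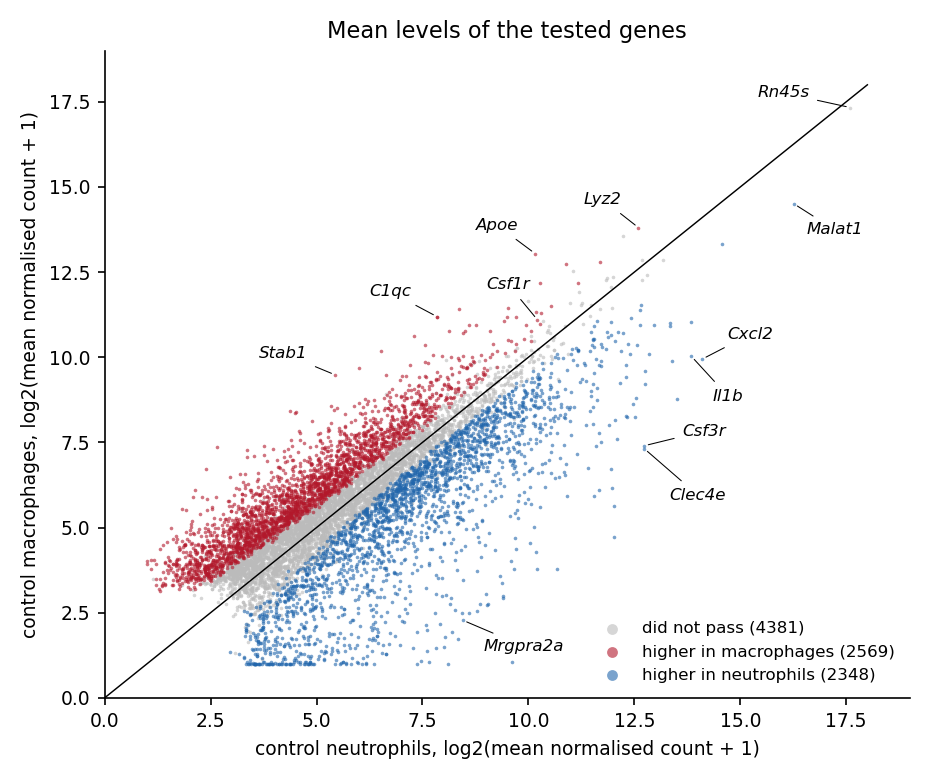
Each point is 1 of 9298 tested genes, with its mean level in the control neutrophils on the x axis and in the control macrophages on the y axis, both as log2(mean normalised count + 1), and the line marks equal levels. Genes called higher in macrophages (2569, red) lie above the line and genes called higher in neutrophils (2348, blue) below it, with Mrgpra2a, Clec4e and other genes of the neutrophils far from it.

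The labels matched the markers of both cell types. Csf1r, the receptor for CSF-1, was read at 2324, 2243, 2438 and 1777 in macrophage replicates 1 to 4 and 1217, 1135, 1349 and 1041 in neutrophil replicates 1 to 4, which gave a log2 difference of 0.88 (SE 0.24, adjusted p = 0.00299). The groups did not overlap, but the neutrophil mean was 54.01% of the macrophage mean. Adgre1, which encodes F4/80, stood at 574, 500.5, 474 and 608 in macrophage replicates 1 to 4 and 158, 62.1, 81.4 and 133 in neutrophil replicates 1 to 4, a 4.96-fold higher mean in macrophages (log2 difference 2.39, adjusted p = 9.14e-07).

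The 3 chains of C1q, the recognition molecule of the classical complement pathway, lie side by side on chromosome 4. C1qa was at 744, 911, 1095 and 1882 in macrophage replicates 1 to 4 and 116, 56.2, 59.2 and 134 in neutrophil replicates 1 to 4, C1qb had means of 2335 ± 549 (SD, n = 4) and 228 ± 101 (SD, n = 4), and C1qc had means of 2338 ± 368 (SD, n = 4) and 229 ± 104 (SD, n = 4). Their log2 differences were 3.67, 3.44 and 3.46 (adjusted p = 7.32e-08, 6.61e-09 and 8.35e-10). Neutrophil replicates 2 and 3 held less of C1qa than neutrophil replicates 1 and 4.

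On the neutrophil side, Csf3r, the G-CSF receptor, was at 5038, 6779, 7532 and 7895 in neutrophil replicates 1 to 4 and 129, 93.3, 302 and 148 in macrophage replicates 1 to 4. The neutrophil mean was 40.5 times the macrophage mean, with a log2 difference of -5.45 (SE 0.3032, adjusted p = 8.18e-13), and the highest macrophage library was replicate 3. Cxcr2, the receptor for neutrophil-attracting chemokines, was at 3069, 3724, 3495 and 5419.8 in neutrophil replicates 1 to 4 and at 104 in macrophage replicate 3, the only macrophage value kept. S100a8, a calcium-binding alarmin, was at 4006, 4881, 9738 and 4884 in neutrophil replicates 1 to 4 and at 304 in macrophage replicate 3, again the only value kept. With a single macrophage value, neither gene is given a test here, although both are counted among the calls.

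**Figure D2:**
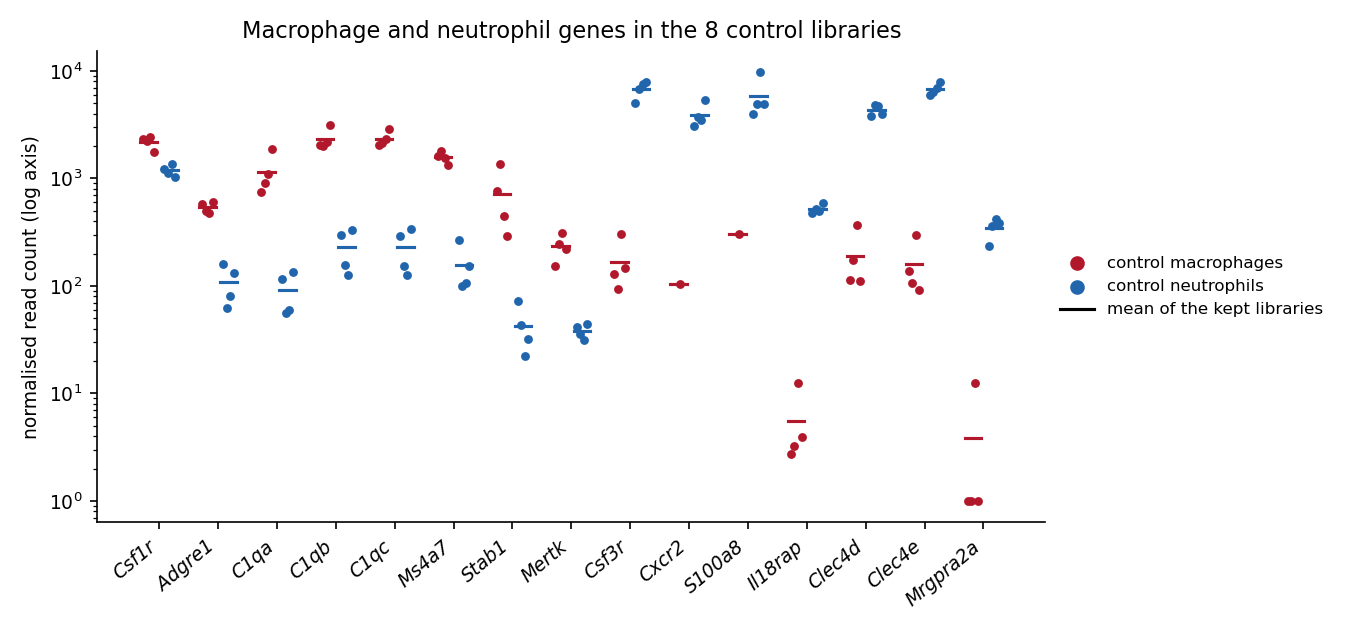
Normalised read counts on a log axis of 15 genes, 1 point per kept library and a bar at the mean, in the 4 control macrophage (red) and 4 control neutrophil (blue) libraries. The macrophage points of Csf1r, Adgre1, the C1q genes, Ms4a7, Stab1 and Mertk lie above the neutrophil points, and those of Csf3r, Cxcr2, S100a8, Il18rap, Clec4d, Clec4e and Mrgpra2a lie below them.

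Promoters of 5 of these genes are shown because they belong to markers and neighbouring gene pairs that differed between the cell types, from 250 bases before to 50 bases from the start site on, 5′ to 3′ along the gene, with matches to the searched motifs in capitals. They are from RefSeq (GRCm38.p6), the build of the deposited table. Those of C1qb, chr4:136886151-136886450 (minus strand), and C1qc, chr4:136892865-136893164 (minus strand), belong to neighbouring genes that were higher in macrophages. Those of Clec4d, chr6:123261857-123262156 (plus strand), and Clec4e, chr6:123289822-123290121 (minus strand), belong to neighbouring lectin genes that were higher in neutrophils, as was Csf3r, chr4:126024409-126024708 (plus strand).
C1qb: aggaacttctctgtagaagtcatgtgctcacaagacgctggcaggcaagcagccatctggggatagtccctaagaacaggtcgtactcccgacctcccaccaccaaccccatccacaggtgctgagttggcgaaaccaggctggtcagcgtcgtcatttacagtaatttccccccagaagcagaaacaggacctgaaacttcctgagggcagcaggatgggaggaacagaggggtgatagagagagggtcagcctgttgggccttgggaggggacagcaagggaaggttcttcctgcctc
C1qc: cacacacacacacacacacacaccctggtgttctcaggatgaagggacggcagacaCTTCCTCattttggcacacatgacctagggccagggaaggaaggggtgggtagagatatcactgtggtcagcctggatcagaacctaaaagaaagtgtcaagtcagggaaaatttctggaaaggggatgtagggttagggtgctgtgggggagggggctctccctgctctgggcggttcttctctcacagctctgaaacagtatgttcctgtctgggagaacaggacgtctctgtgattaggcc
Clec4d: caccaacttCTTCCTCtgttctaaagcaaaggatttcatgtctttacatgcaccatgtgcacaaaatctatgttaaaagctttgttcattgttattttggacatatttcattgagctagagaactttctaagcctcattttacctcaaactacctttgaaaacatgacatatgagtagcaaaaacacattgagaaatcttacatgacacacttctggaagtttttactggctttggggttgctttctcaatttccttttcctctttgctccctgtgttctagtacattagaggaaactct
Clec4e: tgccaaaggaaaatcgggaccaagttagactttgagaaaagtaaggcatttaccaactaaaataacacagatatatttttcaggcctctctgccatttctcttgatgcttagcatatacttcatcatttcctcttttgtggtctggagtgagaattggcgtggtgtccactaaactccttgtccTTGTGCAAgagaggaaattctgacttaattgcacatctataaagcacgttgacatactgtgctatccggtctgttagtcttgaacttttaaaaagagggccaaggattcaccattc
Csf3r: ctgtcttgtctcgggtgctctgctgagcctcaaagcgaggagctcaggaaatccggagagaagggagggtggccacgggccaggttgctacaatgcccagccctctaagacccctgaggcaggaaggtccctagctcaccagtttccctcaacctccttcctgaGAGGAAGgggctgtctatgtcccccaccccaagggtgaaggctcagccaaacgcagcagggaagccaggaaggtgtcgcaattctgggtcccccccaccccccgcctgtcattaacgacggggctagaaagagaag

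Motifs were searched on both strands as the letters GAGGAAG (the kind bound by PU.1 and other ETS factors), TTGCNNAA (the kind bound by C/EBP factors) and TCACGTG (an E-box of lysosomal genes). In the sequences above, GAGGAAG matched in C1qc, Clec4d and Csf3r, TTGCNNAA matched in Clec4e, and C1qb held no match. Of the 15 genes with the largest difference toward neutrophils, 9 had a promoter in the table and 6 of these held GAGGAAG (Clec4d, Csf3r, Cxcl2, F630028O10Rik, Il18rap and Samsn1), beside 3 of 11 for macrophages (C1qc, Cd72 and Pianp) and 15.4% of all 27025 genes with a promoter. TTGCNNAA was in 1 of 9, 0 of 11 and 12.2%, and TCACGTG was in 0 of 9, 1 of 11 and 4.29%. The genes were chosen by their difference, the sets are small, and a match describes letters, not a bound site.

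The wider marker lists showed the same separation, and the markers of each cell type were also read in the sort of the other. Of 27 macrophage markers tested, 26 were higher in macrophages and 0 in neutrophils, with a median of 2.39. The 18 of these genes kept in all 8 libraries summed to between 18468 and 22471 in macrophages and to between 3728 and 6059 in neutrophils. In single neutrophil libraries the macrophage markers stood at a median of 13.5 to 30.6% of their macrophage mean. All 29 neutrophil markers tested were higher in neutrophils, with a median of -5.41, and in the macrophage libraries they stood at a median of 1.18 to 4.32% of their neutrophil mean.

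The highest of these shares was in macrophage replicate 3, where the 6 neutrophil markers kept in all 8 libraries summed to 1401, against 537, 542 and 738 in macrophage replicates 1, 2 and 4 and 20711 to 24702 in neutrophils. Without macrophage replicate 3, 26 of the 26 neutrophil markers that could still be tested were higher in neutrophils (median -5.85) and 26 of 27 macrophage markers were higher in macrophages (median 2.39). In RNA from sorted cells, fewer cells of a type and less RNA per cell cannot be told apart, and the part of carried-over cells or RNA in the smaller differences was not tested.

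**Figure D3:**
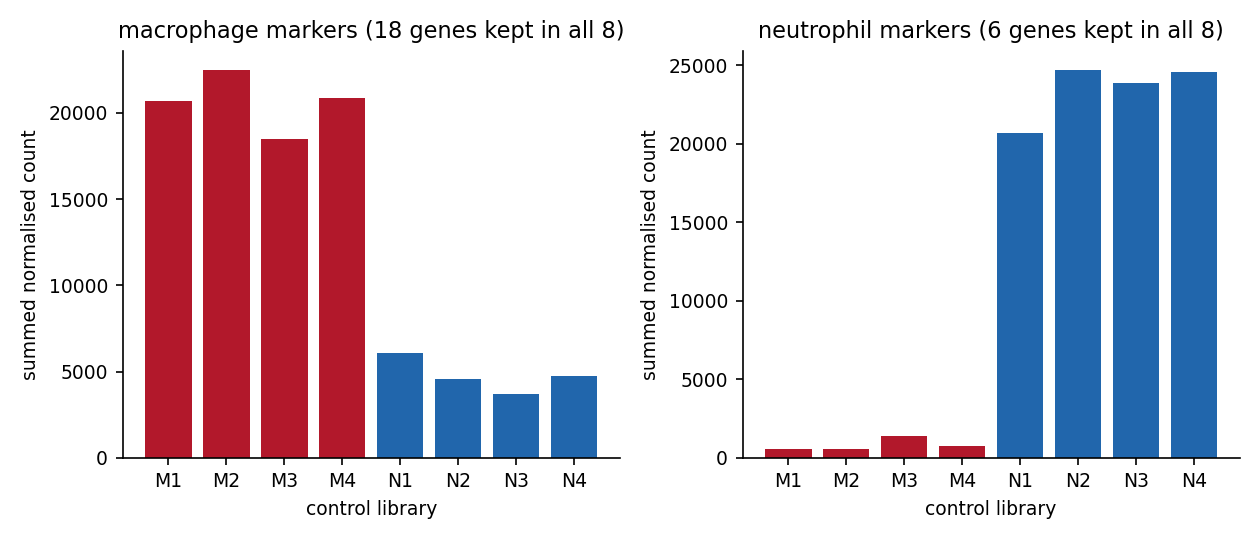
Bars give the summed normalised read count of the markers kept in all 8 libraries, 18 macrophage markers on the left and 6 neutrophil markers on the right, in macrophage libraries M1 to M4 (red) and neutrophil libraries N1 to N4 (blue). Macrophage markers stay well above zero in every neutrophil library, and among the macrophage libraries M3 has the tallest bar of neutrophil markers.

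Markers of other cells were mostly low. Monocyte markers were mainly higher in neutrophils, with 2 of 12 tested higher in macrophages and 8 higher in neutrophils (median -2.54). Decoded without the groups, 0 were higher in macrophages and 6 in neutrophils of 10 tested. Their summed level was 2044 to 5929 in macrophages and 3127 to 6634 in neutrophils. The list holds genes that neutrophils also express. Dendritic cell markers (3 higher in macrophages and 2 in neutrophils of 6) summed to 222 to 396 and 74.01 to 117. T cell markers summed to 263 to 485 and 47.3 to 88.9, 3 of them were tested (median 2.02, but -0.73 over 2 when decoded without the groups), and they include Cd4, a co-receptor that macrophages can also express, which was at 150.2, 238, 177 and 192 in macrophage replicates 1 to 4 and 20.7, 16.3, 22.2 and 21.3 in neutrophil replicates 1 to 4. Cd3d, which encodes a chain of the T cell receptor complex, was listed at the lowest value of 1 in all 4 macrophage libraries and was at 8.89, 23.6, 12.9 and 6.48 in neutrophil replicates 1 to 4.

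The 7 tumour epithelial markers in the table summed to 3.66 to 75.3 in macrophages and 105 to 270.1 in neutrophils. Cdh1, the E-cadherin gene that Cre deletes in the epithelium, was at 1, 21.1, 36.5 and 58.6 in macrophage replicates 1 to 4 and 48.9, 142, 42.5 and 95.3 in neutrophil replicates 1 to 4. Its groups overlapped, and its adjusted p of 0.0219 rose to 0.068, 0.0713 and 0.0514 without macrophage replicate 1, neutrophil replicate 2 or neutrophil replicate 4. Trp53, the other deleted gene, which was added to the text because it is the target, was at 98.5, 123, 116 and 101 in macrophage replicates 1 to 4 and 66.7, 85.7, 124 and 110.2 in neutrophil replicates 1 to 4 (adjusted p = 0.589). Neither gene checks the labels, because the deletion is driven in epithelial cells and is shared by all groups.

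Eosinophil markers summed to 2.75 to 17.9 in macrophages and 76.8 to 427 in neutrophils. As in the other lists of other cells, each sum runs over the members kept in that library. Neutrophil replicate 4, with the lowest neutrophil sum, had no Siglecf value kept. Over the 2 members kept in all 8 libraries the sums were 1.38 to 4.06 and 17.8 to 44.4. Siglecf, the defining surface lectin of mouse eosinophils, was at 1, 1, 16.5 and 7.81 in macrophage replicates 1 to 4 and 238, 228 and 394 in neutrophil replicates 1, 2 and 3. Mast cell and basophil markers summed to 9.16 to 41.3 and 32.6 to 174, fibroblast markers to 20.6 to 167 and 47.2 to 407, endothelial markers to 19.7 to 95.03 and 93.3 to 116, B and plasma cell markers to 2.43 to 12.8 and 0 to 70.3, and the single NK cell marker in the table to 0 to 59.7 and 0 to 7.41. Eosinophil and epithelial sums were thus higher in every neutrophil library than in any macrophage library, and their part in the results was not tested. The 2 endothelial markers tested had a median of -0.20 that became 0.29 with same-total scaling. Pecam1, an endothelial and leukocyte adhesion molecule, was at 17.04, 81.9 and 31.2 in macrophage replicates 2, 3 and 4 and 93.3, 90.2, 99.9 and 108 in neutrophil replicates 1 to 4 and did not pass (adjusted p = 0.0653), although it passed without macrophage replicate 3 (adjusted p = 0.0206).

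Among genes with all 8 values kept, the largest differences toward macrophages included scavenger and membrane proteins. Stab1, a scavenger receptor, was at 761, 1357, 446 and 291 in macrophage replicates 1 to 4 and 72.6, 42.9, 22.2 and 32.4 in neutrophil replicates 1 to 4, with a log2 difference of 3.93 (SE 0.42, adjusted p = 2.32e-07). Its macrophage values spread over a wide range. Ms4a7, a macrophage membrane protein of the MS4A family, was at 1605, 1789.5, 1552 and 1344 in macrophage replicates 1 to 4 and 268, 99.04, 106 and 153 in neutrophil replicates 1 to 4 (log2 difference 3.43, adjusted p = 7.88e-09). Plxnb2, a semaphorin receptor, was at 319, 286, 216 and 92.6 in macrophage replicates 1 to 4 and 11.8, 38.4, 29.6 and 12.03 in neutrophil replicates 1 to 4 (log2 difference 3.29), and Abhd12, a lipid hydrolase, was at 254, 167, 208 and 223 in macrophage replicates 1 to 4 and 32.6, 35.5, 25.9 and 33.3 in neutrophil replicates 1 to 4 (log2 difference 2.698, SE 0.21). Fads1, a fatty acid desaturase, and Cd72, a C-type lectin known from B cells, had log2 differences of 2.78 and 2.98. The rule for the largest differences took only genes whose groups did not overlap. Cd72 was not called when decimal places were restored without the groups.

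The largest differences toward neutrophils were wider. Il18rap, a subunit of the interleukin-18 receptor, was at 475, 519, 499.6 and 589 in neutrophil replicates 1 to 4 and 2.75, 3.25, 12.4 and 3.91 in macrophage replicates 1 to 4, with a log2 difference of -6.51 (SE 0.39, adjusted p = 5.95e-12). Its macrophage values lay near the lowest listed ones, so the size of the difference depends on the pseudocount.

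Hcar2, a receptor for hydroxybutyrate and niacin, was at 4069.9, 2523, 5116 and 4498 in neutrophil replicates 1 to 4 and 17.9, 41.4, 152 and 73.1 in macrophage replicates 1 to 4, and its neutrophil mean was 56.96 times the macrophage mean. Gpr84, a receptor for medium-chain fatty acids, was at 487, 546, 883 and 1187 in neutrophil replicates 1 to 4 and 7.33, 8.11, 39.9 and 5.02 in macrophage replicates 1 to 4 (log2 difference -5.96). Mrgpra2a, a G protein-coupled receptor with close copies in the genome, was at 234, 361, 416 and 387 in neutrophil replicates 1 to 4 and was listed at 1 in macrophage replicates 1, 2 and 4. Reads of such copies may have been shared between them, which leaves the level of each uncertain. In all 3 genes macrophage replicate 3 was the highest macrophage library.

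Cytokine receptors were mainly higher in neutrophils. Of 27 tested, 3 were higher in macrophages, 16 were higher in neutrophils and 8 did not pass, with a median of -0.96. The 3 higher in macrophages were Csf1r, Il21r and Tgfbr2. Il1rap, the shared subunit of the interleukin-1 receptor family, was at 926, 1616, 690.1 and 804 in neutrophil replicates 1 to 4 and 48.1, 64.1, 66.8 and 45.2 in macrophage replicates 1 to 4, with a log2 difference of -4.09 (SE 0.27, adjusted p = 1.33e-11). Il13ra1 and Tnfrsf1a, receptor chains for interleukin-13 and for TNF, had log2 differences of -2.06 and -2.21, and their groups did not overlap.

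Chemoattractant receptors were divided by cell type. Of 18 tested, 5 were higher in macrophages, 12 were higher in neutrophils and 1 did not pass, with a median of -2.58. Ccrl2, a chemerin-binding receptor, was at 5363, 4476, 5745 and 8326 in neutrophil replicates 1 to 4 and 355, 251, 552 and 609.9 in macrophage replicates 1 to 4 (log2 difference -3.803, adjusted p = 7.44e-09), and Ptafr, the receptor for platelet-activating factor, had means of 1011 ± 180.4 (SD, n = 4) in neutrophils and 178 ± 56.5 (SD, n = 4) in macrophages. The receptors Cxcr1, Fpr1, Fpr2, Ltb4r1, Ccr1, Ccr3, C5ar1, Cxcr4 and Ccr7 were also higher in neutrophils. C3ar1, the receptor for the complement fragment C3a, was at 1939, 1802, 1351 and 1591 in macrophage replicates 1 to 4 and 570.2, 389, 176 and 277 in neutrophil replicates 1 to 4 and was higher in macrophages by a log2 difference of 2.36, as were Cx3cr1, Cmklr1 and S1pr1.

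Of 21 chemokines tested, 8 were higher in macrophages, 7 were higher in neutrophils and 6 did not pass (median 1.11). The median was 0.69 without macrophage replicate 3. Decoded without the groups, 3 were higher in macrophages and 4 in neutrophils of 17 tested, with a median of 0.28. Cxcl2, a CXCR2 ligand that attracts neutrophils, was at 21378, 18891, 16522 and 13651 in neutrophil replicates 1 to 4 and 608, 415, 1251 and 1671 in macrophage replicates 1 to 4, with a log2 difference of -4.35 (SE 0.59, adjusted p = 1.15e-06). Ccl3, a ligand of CCR1, was at 3691, 5132, 5541 and 2525 in neutrophil replicates 1 to 4 and 182 and 392 in macrophage replicates 2 and 4 (log2 difference -3.91). Cxcl1, Cxcl3, Ccl4, Ccl17 and Cxcl10 were higher in neutrophils too. Toward macrophages, Cxcl16, a membrane-bound ligand of CXCR6, was at 679, 736, 1106 and 1142 in macrophage replicates 1 to 4 and 253, 152, 152 and 227 in neutrophil replicates 1 to 4 (log2 difference 2.22, adjusted p = 2.72e-05), Pf4 was at 107, 532 and 357 in macrophage replicates 1, 2 and 3 and 20.7, 32.5, 22.2 and 12.03 in neutrophil replicates 1 to 4 and Ccl7 was at 92.04, 216 and 191 in macrophage replicates 1, 2 and 4 and 17.8 and 7.401 in neutrophil replicates 1 and 3. Ccl2, Ccl8, Ccl12, Cxcl13 and Ppbp were higher in macrophages as well.

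Inflammatory genes were mainly higher in neutrophils. Il1b, the interleukin-1 beta gene, was at 15053, 17128, 11527 and 15255 in neutrophil replicates 1 to 4 and 440.0, 294, 1237 and 2196 in macrophage replicates 1 to 4, with a log2 difference of -4.24 (SE 0.58, adjusted p = 1.62e-06). Macrophage replicates 3 and 4 were higher than replicates 1 and 2, and every macrophage value was below every neutrophil value. Nlrp3, the sensor of an inflammasome that matures interleukin-1 beta, was at 5989, 5016, 4017 and 5268 in neutrophil replicates 1 to 4 and 207, 188, 373 and 458 in macrophage replicates 1 to 4 (log2 difference -4.13, adjusted p = 4.48e-10). Txnip, a thioredoxin-binding protein, and Casp4, an inflammatory caspase, had log2 differences of -3.65 and -2.82. In the interleukin-1 and inflammasome list, 3 were higher in macrophages, 12 were higher in neutrophils and 7 did not pass of 22 tested (median -1.03), and the 3 higher in macrophages were Nlrc4, Il18bp and Naip5.

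The list of TNF and NF-kB feedback genes was higher in neutrophils in nearly all members. Of 23 tested, 21 were higher in neutrophils, 1 (Cd83) was higher in macrophages and 1 (Nfkbib) did not pass, with a median of -2.49. Tnf was at 1422, 1113, 979 and 1844 in neutrophil replicates 1 to 4 and 58.1, 39.8, 66.8 and 122 in macrophage replicates 1 to 4, with a log2 difference of -4.28 (SE 0.36, adjusted p = 4.41e-10). Nfkbia and Nfkbiz, inhibitor-type proteins that NF-kB itself induces, had means of 1352 ± 160.1 (SD, n = 4) and 3071 ± 695 (SD, n = 4) in neutrophils and of 117 ± 39.3 (SD, n = 4) and 166 ± 102 (SD, n = 4) in macrophages. Birc3, a regulator of TNF receptor signalling, was at 658, 807, 921 and 816 in neutrophil replicates 1 to 4 and 128, 131, 127 and 114 in macrophage replicates 1 to 4 (log2 difference -2.66). Icam1, an adhesion molecule, and Ptgs2, the inducible cyclooxygenase, had log2 differences of -3.85 and -3.92.

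**Figure D4:**
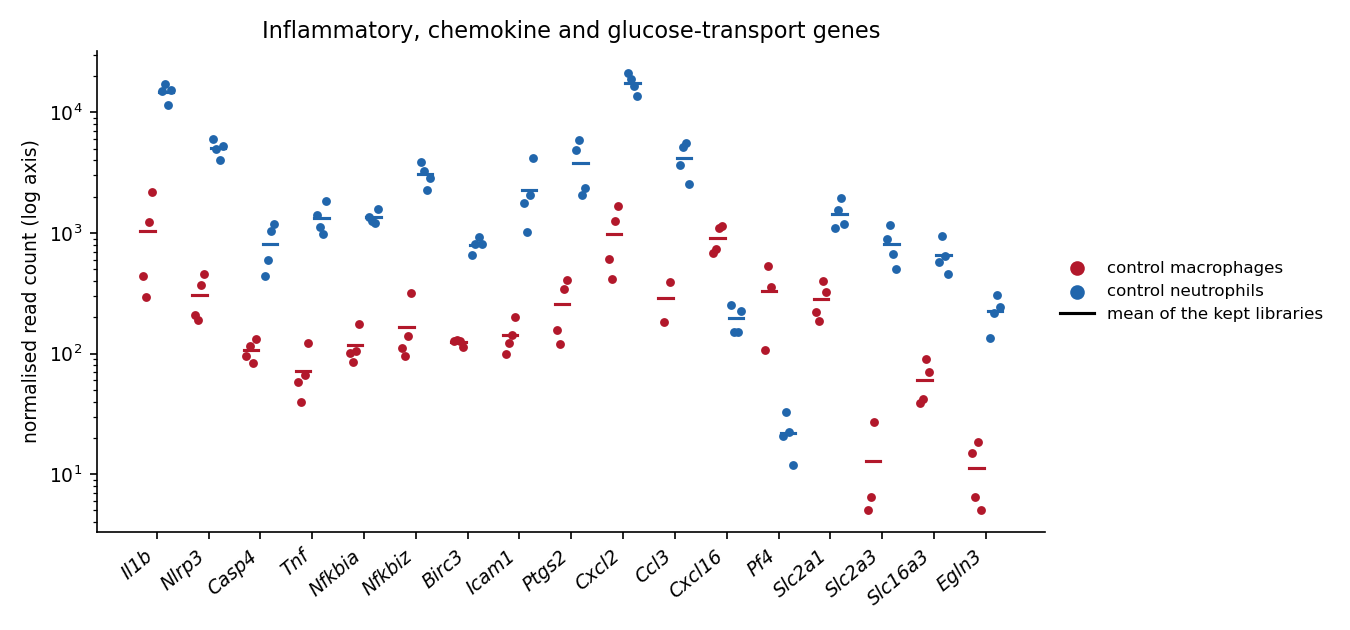
Normalised read counts on a log axis of 17 inflammatory, chemokine and glucose-transport genes, 1 point per kept library and a bar at the mean, in control macrophages (red) and control neutrophils (blue). Neutrophil points lie above macrophage points for all genes shown except Cxcl16 and Pf4, where the order is the opposite.

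Of 26 growth and angiogenic factors tested, 10 were higher in macrophages, 7 were higher in neutrophils and 9 did not pass. Over all tested genes 27.6% were higher in macrophages and 25.3% in neutrophils. The median of the list was 0.01. It became -0.10 with trimmed-mean factors, 0.22 with quantile and 0.48 with same-total scaling, and 0.50 without macrophage replicate 3. Csf1, the ligand of the macrophage receptor Csf1r, was at 779, 1248, 1027 and 1098 in neutrophil replicates 1 to 4 and 151 and 50.8 in macrophage replicates 3 and 4, so that the ligand was higher in neutrophils (log2 difference -3.53, adjusted p = 5.78e-07). Prok2, a chemoattractant peptide, was at 68.1, 216 and 87.9 in neutrophil replicates 1, 3 and 4 and was listed at 1 in 3 macrophage libraries. Sema4d, a semaphorin that binds plexin B receptors, had means of 1328 ± 239.9 (SD, n = 4) in neutrophils and 413 ± 52.9 (SD, n = 4) in macrophages. Gas6, the ligand of Axl and Mertk, was higher in macrophages, at 155, 161 and 82.6 in macrophage replicates 1, 2 and 3 and 37.03, 5.91, 7.401 and 21.3 in neutrophil replicates 1 to 4. Pdgfa, Pdgfb, Pdgfc, Pgf and Vegfb were higher in macrophages, and Vegfa, Hbegf, Ereg and Inhba in neutrophils.

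Of 17 matrix proteases and inhibitors tested, 8 were higher in macrophages, 6 were higher in neutrophils and 3 did not pass (median 0.65). Mmp8, the neutrophil collagenase, was at 107, 176, 581 and 265 in neutrophil replicates 1 to 4 and 1, 15.2 and 1 in macrophage replicates 1, 3 and 4. Mmp9, a gelatinase of tertiary granules, was at 1499, 871, 1499 and 1221 in neutrophil replicates 1 to 4 and 157 and 313 in macrophage replicates 2 and 3, with a log2 difference of -2.48 (SE 0.41, adjusted p = 3.53e-05). Timp2, an inhibitor of metalloproteinases, was at 963, 821, 494 and 455 in macrophage replicates 1 to 4 and 231, 155, 155 and 138 in neutrophil replicates 1 to 4 and was higher in macrophages (log2 difference 1.96), as were Mmp13 and Mmp14.

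Granule proteins followed the neutrophils. Of 20 secondary and tertiary granule genes tested, 17 were higher in neutrophils, with a median of -3.99, and the 3 higher in macrophages were Lyz1, Lyz2 and Cybb. Lyz2, lysozyme, which both cell types are known to make, was at 13128, 14933, 17438 and 11807 in macrophage replicates 1 to 4 and 7072, 8118, 5532 and 4071 in neutrophil replicates 1 to 4, and its adjusted p of 0.014 rose to 0.0536 when neutrophil replicate 4 was left out. Without macrophage replicate 3, 18 genes of the list could be tested, of which 3 were higher in macrophages and 15 in neutrophils (median -4.16). Pglyrp1, a peptidoglycan-binding granule protein, was at 93.3, 143, 322 and 215 in neutrophil replicates 1 to 4 and was listed at 1 in macrophage replicates 1, 2 and 4. None of the 8 azurophil granule genes searched was in the table.

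Of 12 calgranulins and stefins tested, 9 were higher in neutrophils and 0 in macrophages (median -4.14), and with quantile and same-total scaling 3 and 2 were called higher in macrophages. Without macrophage replicate 3, 6 of 9 tested were higher in neutrophils. S100a11, a calcium-binding protein, was at 752, 1239, 1327 and 870.1 in neutrophil replicates 1 to 4 and 90.2, 156 and 61.9 in macrophage replicates 1, 2 and 4. Stfa2l1, a cysteine protease inhibitor of a family with near-identical copies, was at 1928, 3131, 5236 and 1626 in neutrophil replicates 1 to 4 and 20.1, 33.3 and 127 in macrophage replicates 1, 2 and 3, and reads may have been split between the copies. S100a4, S100a10 and Cstb did not pass with the deposited scaling.

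The superoxide-generating oxidase was unequally shared: 2 were higher in macrophages, 4 were higher in neutrophils and 3 did not pass of 9 tested, with a median of -0.13 that became positive (0.07 and 0.41) under quantile and same-total scaling and when decoded without the groups (0.08), and -0.36 without macrophage replicate 3. Cybb, the catalytic membrane subunit, was higher in macrophages at 1382, 883, 2249 and 2469.6 in macrophage replicates 1 to 4 and 690.2, 352, 585 and 552 in neutrophil replicates 1 to 4 (log2 difference 1.61, adjusted p = 0.000491). The cytosolic subunits Ncf1 and Ncf4 and the GTPase Rac2, which join it on activation, had log2 differences of -1.86, -1.52 and -2.21. For Ncf4 the values were 357, 474, 574 and 607 in neutrophil replicates 1 to 4 and 126, 151, 204 and 221 in macrophage replicates 1 to 4. The groups did not overlap for any of these 4 genes, which were named for their small p.

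Of 19 complement genes tested, 10 were higher in macrophages, 7 were higher in neutrophils and 2 did not pass (median 1.66). Decoded without the groups, 6 were higher in macrophages and 7 in neutrophils of 19 tested, with a median of 1.18. With quantile scaling 11 and 3 were. Besides the C1q chains, C4b, C6, Cfb and C1ra were higher in macrophages, and C3, the receptors C5ar1 and C5ar2 and the integrins Itgam, Itgax and Itgb2 were higher in neutrophils. C5ar2, a receptor for C5a, was at 117, 157, 168 and 136 in neutrophil replicates 1 to 4 and 45.3, 32.5, 36.5 and 30.1 in macrophage replicates 1 to 4 (log2 difference -1.98).

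Pattern-recognition receptors were called in both directions, beside 27.6% of all tested genes higher in macrophages and 25.3% higher in neutrophils. Of 23 Toll-like receptors and adaptors tested, 7 were higher in macrophages, 7 were higher in neutrophils and 9 did not pass, with a median of 0.02 that became -0.10 with trimmed-mean factors, 0.42 with quantile and 0.53 with same-total scaling. The receptors of nucleic acids in endosomes Tlr3, Tlr7, Tlr8 and Tlr9 were higher in macrophages, but Tlr13, another of them, was higher in neutrophils. At the cell surface Tlr4, Tlr6 and Cd14 were higher in neutrophils and Tlr1, Tlr2 and Tlr5 did not pass. Tlr7 was at 315, 330.2, 148 and 194 in macrophage replicates 1 to 4 and 72.6, 36.95, 44.4 and 47.2 in neutrophil replicates 1 to 4, with a log2 difference of 2.24 (SE 0.31, adjusted p = 1.97e-06). Tlr6, which pairs with TLR2, was at 391, 438, 516 and 455 in neutrophil replicates 1 to 4 and 26.1, 19.5, 33.05 and 23.4 in macrophage replicates 1 to 4, with a log2 difference of -4.11 (SE 0.25, adjusted p = 5.95e-12). Irak2, a kinase downstream of these receptors, had a log2 difference of -2.39.

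Fc receptors, TREM receptors and their ITAM adaptors were mostly higher in neutrophils: 18 of 24 tested, against 5 higher in macrophages, with a median of -1.72. Trem1, an amplifier of inflammatory signals, was at 3753, 4393, 2698 and 2666 in neutrophil replicates 1 to 4 and 93.9, 118, 256 and 263 in macrophage replicates 1 to 4, and Trem3 had a neutrophil mean of 189 ± 26.8 (SD, n = 4) and a macrophage mean of 3.37 ± 2.26 (SD, n = 4). Fgr and Syk, kinases that act downstream of such receptors, had log2 differences of -2.76 and -2.47. Trem2, Fcgr1, Fcgr2b, Fcgrt and Fcrls were the genes higher in macrophages.

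Of 14 C-type lectin receptors tested, 3 were higher in macrophages, 7 were higher in neutrophils and 4 did not pass (median -0.55). Decoded without the groups, 3 were higher in macrophages and 5 in neutrophils of 12 tested, with a median of -0.14. Clec4e, the Mincle receptor for mycobacterial and dead-cell ligands, was at 6012, 6313, 6968 and 7941 in neutrophil replicates 1 to 4 and 136, 107, 298 and 92.6 in macrophage replicates 1 to 4, with a log2 difference of -5.57 (SE 0.41, adjusted p = 5.98e-11). Clec4d, which pairs with it, was at 3772, 4851, 4692 and 4009 in neutrophil replicates 1 to 4 and 113, 174, 369.8 and 110.5 in macrophage replicates 1 to 4 (log2 difference -4.67). The promoters of this pair are printed above. Mrc1, the mannose receptor, and Clec4a1 and Clec4a3 were higher in macrophages.

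Adhesion genes were mainly higher in neutrophils. Of 18 integrins, selectins and ligands tested, 4 were higher in macrophages, 10 were higher in neutrophils and 4 did not pass (median -1.25). Selplg, the ligand of P-selectin, had means of 759 ± 137 (SD, n = 4) in neutrophils and 123 ± 30.3 (SD, n = 4) in macrophages, and Cd44, the hyaluronan receptor, of 5242 ± 1141 (SD, n = 4) and 1337 ± 524 (SD, n = 4). Itgb5, an integrin chain that binds vitronectin, was higher in macrophages at 229.9, 194, 246 and 428 in macrophage replicates 1 to 4 and 93.3, 56.2, 25.9 and 44.4 in neutrophil replicates 1 to 4 (log2 difference 2.38). In the actin list 12 of 27 genes were higher in neutrophils and 0 in macrophages, with a median of -0.37 that turned positive under quantile (0.34, with 8 higher in each cell type) and same-total scaling (0.15, with 6 higher in macrophages and 9 in neutrophils). Msn, which links actin to the membrane, was at 5869, 6755, 5859.6 and 6821 in neutrophil replicates 1 to 4 and 1775, 1868, 2362 and 1943 in macrophage replicates 1 to 4, and Vasp, an actin elongation factor, had a log2 difference of -2.16.

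Genes for the uptake of dying cells were mainly higher in macrophages. Of 20 tested, 12 were higher in macrophages, 3 were higher in neutrophils and 5 did not pass (median 1.40). Mertk and Axl, receptor kinases that recognise phosphatidylserine through Gas6 and Pros1, were at 152, 248, 312 and 220.4 in macrophage replicates 1 to 4 and 41.5, 35.5, 31.4 and 44.4 in neutrophil replicates 1 to 4 and at 903, 689, 1167 and 1473 in macrophage replicates 1 to 4 and 339, 257, 99.9 and 304 in neutrophil replicates 1 to 4. Their log2 differences were 2.54 and 2.16. Msr1, a scavenger receptor, was at 1695, 2954, 1702 and 1563 in macrophage replicates 1 to 4 and 634, 289 and 377 in neutrophil replicates 1, 3 and 4 (log2 difference 2.22). Cd300lf, Itgb3 and Anxa1 were the members higher in neutrophils.

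Degradation and lipid genes were also mainly higher in macrophages. Of 47 cathepsin and lysosomal genes tested, 30 were higher in macrophages, 2 were higher in neutrophils and 15 did not pass (median 0.78). Lgmn, an asparagine-specific lysosomal protease, was at 1322, 1754, 1468 and 2384 in macrophage replicates 1 to 4 and 493, 195, 165 and 266 in neutrophil replicates 1 to 4, with a log2 difference of 2.72 (SE 0.4039, adjusted p = 4.68e-06). Grn, the granulin precursor, had means of 2319 ± 203 (SD, n = 4) in macrophages and 717 ± 137 (SD, n = 4) in neutrophils. Asah1, acid ceramidase, was at 459, 379, 466 and 405 in macrophage replicates 1 to 4 and 170.3, 168, 163 and 168 in neutrophil replicates 1 to 4 (log2 difference 1.34), and its neutrophil values lay close together. Gla and Atp6v0c were the members higher in neutrophils.

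Of 25 lipid-handling genes tested, 13 were higher in macrophages, 1 was higher in neutrophils and 11 did not pass (median 0.98). Apoe, the lipid carrier apolipoprotein E, was at 4534, 4749.6, 8327 and 16206 in macrophage replicates 1 to 4 and 1518, 577 and 1329 in neutrophil replicates 1, 3 and 4, with a log2 difference of 2.802 (SE 0.54, adjusted p = 0.000136), and macrophage replicate 4 was the highest library. Fabp5, a fatty acid-binding protein, was at 129, 240.1, 211 and 168 in macrophage replicates 1 to 4 and 53.3, 36.95, 42.5 and 55.5 in neutrophil replicates 1 to 4 (log2 difference 1.95). Plin2, a lipid droplet coat protein, was the member higher in neutrophils.

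Antigen presentation genes were counted by MHC class. Of 15 MHC class II genes tested, 7 were higher in macrophages, 1 was higher in neutrophils and 7 did not pass (median 1.16). Ctss, the cathepsin that trims the invariant chain, was at 4095, 3371, 6627 and 13296 in macrophage replicates 1 to 4 and 2340.1, 1486, 1092 and 2659.5 in neutrophil replicates 1 to 4 (log2 difference 1.73). Cd74, the invariant chain itself, was at 5908, 4217, 19791 and 18415 in macrophage replicates 1 to 4 and 5483, 4773, 3956 and 4936 in neutrophil replicates 1 to 4. Its groups overlapped, because macrophage replicate 2 was below neutrophil replicates 1, 2 and 4, and it did not pass (adjusted p = 0.184), whereas with quantile and same-total scaling its adjusted p was 0.0047 and 0.0364. H2-Aa, H2-Ab1, H2-Eb1 and H2-Eb2, which encode class II chains, did not pass either.

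In the MHC class I list 7 were higher in macrophages, 0 were higher in neutrophils and 15 did not pass of 22 tested (median 0.26, and 0.40 without macrophage replicate 3). The shares over all tested genes were 27.6% higher in macrophages and 25.3% higher in neutrophils. The chaperones Calr and Pdia3 had log2 differences of 1.11 and 1.16, with no overlap between groups, and H2-K1, H2-D1 and B2m did not pass.

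Of 20 costimulatory and checkpoint ligands tested, 5 were higher in macrophages, 7 were higher in neutrophils and 8 did not pass. Over all tested genes 27.6% were higher in macrophages and 25.3% in neutrophils. The median of the list was -0.24. It became positive under quantile (0.07) and same-total scaling (0.28) and was -0.39 without macrophage replicate 3. Cd274, which encodes PD-L1, was at 1339, 1162, 2694 and 2978 in neutrophil replicates 1 to 4 and 155, 161 and 316 in macrophage replicates 1, 2 and 4, with a log2 difference of -3.23 (SE 0.36, adjusted p = 9.78e-08). The pair of ligands of CD28 went in opposite directions, Cd80 at 292, 318, 235 and 252 in neutrophil replicates 1 to 4 and 35.3, 65.7 and 44.6 in macrophage replicates 1, 2 and 4 and Cd86 at 402, 389, 485 and 638 in macrophage replicates 1 to 4 and 227, 214, 139 and 114 in neutrophil replicates 1 to 4. Their log2 differences were -2.51 and 1.49. Lilrb4, an inhibitory receptor, and Tnfsf14, a TNF family ligand, were higher in neutrophils (log2 differences -2.75 and -3.14).

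Of 34 myeloid transcription factors tested, 9 were higher in macrophages, 14 were higher in neutrophils and 11 did not pass, with a median of -0.36 that turned positive under quantile (0.09) and same-total scaling (0.14). Maf, a macrophage identity factor, was higher in macrophages at 291 and 459.9 in macrophage replicates 1 and 2 and 66.7, 41.4, 25.9 and 24.99 in neutrophil replicates 1 to 4 (log2 difference 3.29). The C/EBP family went in both directions: Cebpa was at 176, 136, 169 and 209 in macrophage replicates 1 to 4 and 78.5, 32.5, 25.9 and 44.4 in neutrophil replicates 1 to 4 (log2 difference 2.02), Cebpd was at 105, 118, 157 and 151 in neutrophil replicates 1 to 4 and 8.24, 12.98, 19.97 and 21.2 in macrophage replicates 1 to 4 (log2 difference -3.08), and Cebpb was also higher in neutrophils. Bhlhe40 and Junb had log2 differences of -2.003 and -1.82, and Spi1, the gene of PU.1, was higher in neutrophils.

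Metabolic genes separated by pathway. Of 23 glycolytic enzymes and sugar or lactate transporters tested, 1 was higher in macrophages, 14 were higher in neutrophils and 8 did not pass (median -1.33). Decoded without the groups, 1 was higher in macrophages and 8 in neutrophils of 19 tested, with a median of -0.85. The glucose transporters Slc2a1 and Slc2a3 were at 1099, 1555, 1959 and 1182 in neutrophil replicates 1 to 4 and 221, 187, 397 and 326 in macrophage replicates 1 to 4 and at 892, 1162, 664 and 503 in neutrophil replicates 1 to 4 and 5.04, 6.49 and 26.9 in macrophage replicates 1, 2 and 3. Their log2 differences were -2.38 and -6.15. Slc16a3, which exports lactate, was at 575, 950.5, 646 and 456 in neutrophil replicates 1 to 4 and 38.9, 42.2, 90.2 and 69.8 in macrophage replicates 1 to 4 (log2 difference -3.46), and Slc16a1, another monocarboxylate transporter, was the member higher in macrophages. Hk2, Pgk1, Ldha, Pfkl, Tpi1, Pgam1, Pdk1 and Gpi1 did not pass.

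Of 19 HIF-1 targets and regulators tested, 1 was higher in macrophages, 10 were higher in neutrophils and 8 did not pass (median -0.76). The list shares Slc2a1 and Pfkfb3 with the glycolytic list. Egln3, an oxygen-dependent prolyl hydroxylase, was at 135, 216, 307 and 242 in neutrophil replicates 1 to 4 and 15.1, 6.49, 18.6 and 5.02 in macrophage replicates 1 to 4 (log2 difference -4.31, adjusted p = 4.6e-08), and Kdm3a, a histone demethylase, had a log2 difference of -1.998. Car9 was the member higher in macrophages.

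Respiratory genes went the other way. Of 73 subunits of the respiratory chain and ATP synthase tested, 45 were higher in macrophages and 0 in neutrophils (median 0.86), and of 19 enzymes of the tricarboxylic acid cycle 11 were higher in macrophages and 1, Mdh2, in neutrophils (median 0.72). Ndufc2, a subunit of complex I, was at 86.5, 75.4, 104 and 137 in macrophage replicates 1 to 4 and 19.2, 22.2, 25.9 and 26.8 in neutrophil replicates 1 to 4 (log2 difference 2.03). Atp5g3, Cox5a, Mdh1 and Idh2 had log2 differences of 1.76, 1.57, 1.94 and 1.999. Under all 3 other scalings both medians stayed positive.

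Ribosomal and cell-cycle genes were also higher in macrophages. Of 79 cytosolic ribosomal protein genes, 73 were higher in macrophages and 0 in neutrophils (median 1.15), and with trimmed-mean factors 68 were higher in macrophages (median 1.03). Rps27a was at 233, 196, 227 and 313 in macrophage replicates 1 to 4 and 96.3, 62.1, 72.2 and 77.8 in neutrophil replicates 1 to 4 (log2 difference 1.64), and Rpl39 and Rpl22 had log2 differences of 1.66 and 1.503. Many ribosomal genes have processed copies in the genome, and reads may have been shared with them. Of 33 proliferation genes tested, 21 were higher in macrophages and 0 in neutrophils (median 1.38). Top2a, the topoisomerase of dividing cells, was at 246, 344 and 88.8 in macrophage replicates 1, 2 and 3 and 42.95, 76.9, 16.6 and 14.8 in neutrophil replicates 1 to 4, and Foxm1, a transcription factor of the G2 phase, was at 80.6, 64.1 and 37.9 in macrophage replicates 1, 2 and 3 and 11.8, 19.2, 9.25 and 6.48 in neutrophil replicates 1 to 4. Mcm2, a subunit of the replicative helicase, had a log2 difference of 2.08, and Mki67 and Pcna did not pass.

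In the BCL2 family 3 were higher in macrophages, 4 were higher in neutrophils and 6 did not pass of 13 tested, with a median of -0.42 that became positive (0.08) under same-total scaling. The shares over all tested genes were 27.6% higher in macrophages and 25.3% higher in neutrophils. Mcl1, a survival factor that neutrophils depend on, was at 8107, 8816, 7232 and 7591 in neutrophil replicates 1 to 4 and 2198, 1779.8, 2014 and 1892 in macrophage replicates 1 to 4, with a log2 difference of -2.01 (SE 0.24, adjusted p = 1.54e-07). Bcl2l1, the gene of the survival factor BCL-XL, and Bcl2l11, the gene of the death factor BIM, had log2 differences of -2.61 and -2.06. The death effectors Bax and Bak1 and the pro-apoptotic Bad were higher in macrophages.

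**Figure D5:**
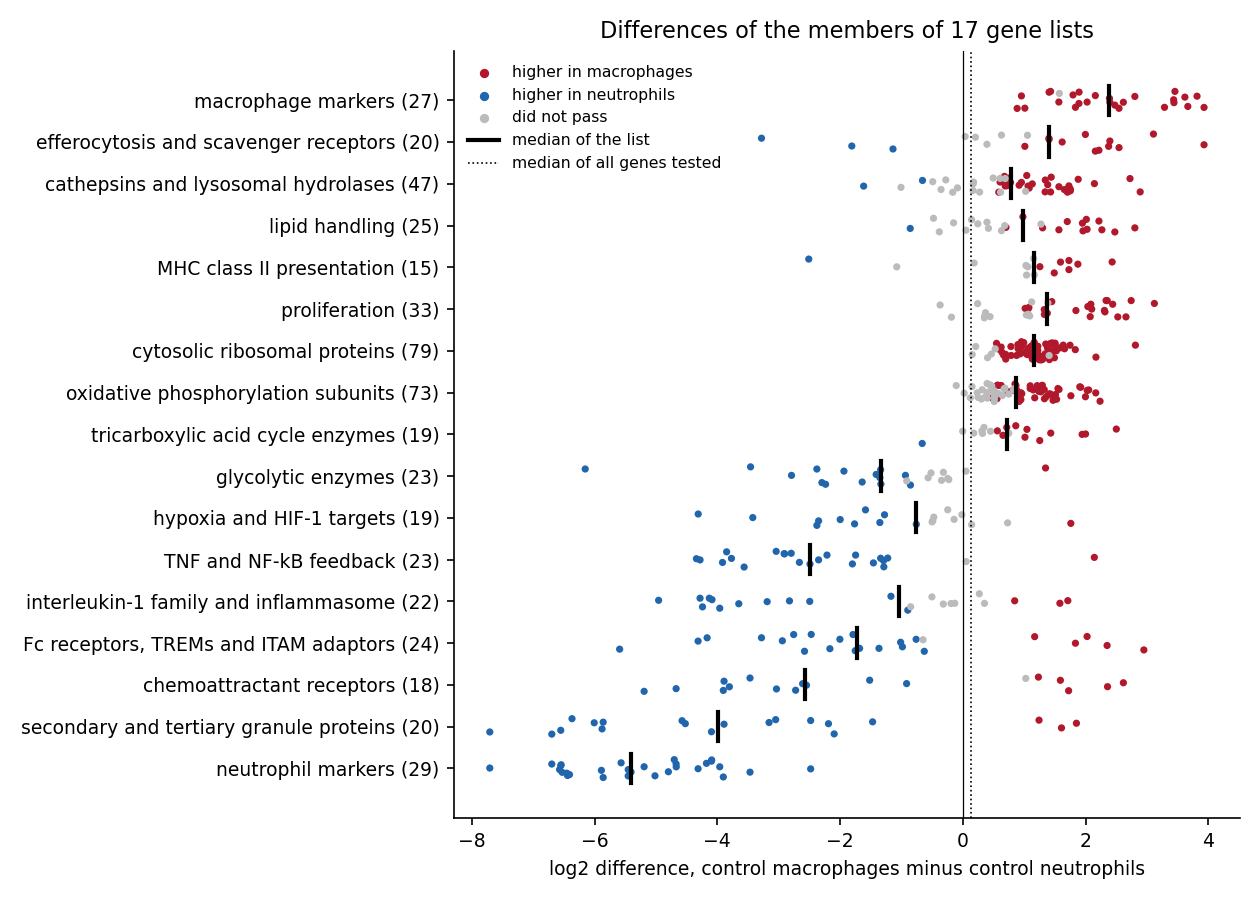
Each point is the log2 difference (control macrophages minus control neutrophils) of 1 tested member of 17 gene lists, red where higher in macrophages, blue where higher in neutrophils and grey where it did not pass. Thick bars mark list medians, from 2.39 for macrophage markers to -5.41 for neutrophil markers, and the dotted line marks the median of all genes tested (0.14).

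Of 41 interferon-stimulated genes tested, 4 were higher in macrophages, 18 were higher in neutrophils and 19 did not pass (median -1.02). Decoded without the groups, 1 was higher in macrophages and 10 in neutrophils of 36 tested, with a median of -0.39. Slfn4, of the Schlafen family, was at 3414, 1858, 1645 and 6007 in neutrophil replicates 1 to 4 and 46.7, 50.96 and 107 in macrophage replicates 1, 3 and 4 (log2 difference -5.45), and Ifitm2 and Ifitm6, of the antiviral IFITM family, had log2 differences of -2.51 and -5.702. The Schlafen and IFITM families have similar members, between which reads may have been split. Mx1, Bst2, Ifi44 and Oas1g were higher in macrophages.

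Of 26 iron and oxidative stress genes tested, 5 were higher in macrophages, 12 were higher in neutrophils and 9 did not pass (median -0.74). Slc7a11, the cystine importer that feeds glutathione synthesis, was at 6686, 6792, 4487 and 4593 in neutrophil replicates 1 to 4 and 141, 241, 898 and 286 in macrophage replicates 1 to 4, with a log2 difference of -4.17 (SE 0.43, adjusted p = 3.48e-08). Gsr, glutathione reductase, was at 1324, 1582, 1758 and 1627 in neutrophil replicates 1 to 4 and 33.4, 39.8, 212 and 64.2 in macrophage replicates 1 to 4 (log2 difference -4.56). The peroxiredoxins went in opposite directions, Prdx6 with a log2 difference of -2.21 and Prdx1 with one of 1.75. Fth1, the ferritin heavy chain, was at 18830.1, 16032, 37334 and 24906 in neutrophil replicates 1 to 4 and 6035, 5724, 13482 and 16233 in macrophage replicates 1 to 4, with overlapping groups and an adjusted p of 0.0144 that rose to 0.0566, 0.0603 and 0.0604 when macrophage replicate 1, macrophage replicate 2 or neutrophil replicate 3 was left out. With quantile scaling it was 0.346.

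Of 14 eicosanoid genes tested, 3 were higher in macrophages, 4 were higher in neutrophils and 7 did not pass (median -0.60). Beside this list and the next stand 27.6% of all tested genes higher in macrophages and 25.3% higher in neutrophils. Alox5 and Alox5ap, which start leukotriene synthesis, were higher in neutrophils, Alox5 at 120.0, 177, 187 and 217 in neutrophil replicates 1 to 4 and 9.73, 17.9 and 12.8 in macrophage replicates 2, 3 and 4 and Alox5ap with a log2 difference of -1.94. Hpgds, a prostaglandin D2 synthase, was at 225, 287, 182 and 271 in macrophage replicates 1 to 4 and 45.9, 50.3 and 38.9 in neutrophil replicates 1, 2 and 4 and was higher in macrophages. Of 8 nitric oxide, arginine and tryptophan genes tested, 2 were higher in macrophages and 1 in neutrophils (median 0.37). That gene was Arg2, the mitochondrial arginase, at 643, 602, 1047 and 1018 in neutrophil replicates 1 to 4 and 13.3, 71.6 and 40.2 in macrophage replicates 1, 3 and 4 (log2 difference -4.52), whereas Arg1 did not pass.

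The 5 genes with the most normalised reads were Rn45s, Malat1, Lyz2, Cd74 and Fth1 in macrophages and Rn45s, Malat1, Fth1, Cxcl2 and Il1b in neutrophils. Read counts also grow with transcript length, so these are not ranks of molecules. Rn45s, a ribosomal RNA precursor present in many copies, was at 87751, 191204, 240204 and 141218 in macrophage replicates 1 to 4 and 185718, 186477, 229270.0 and 191466 in neutrophil replicates 1 to 4, with overlapping groups, an adjusted p of 0.6 and a log2 difference of -0.35 that was 0 under quantile and positive (0.17) under same-total scaling. Malat1, a nuclear long non-coding RNA, was at 86248, 98087, 60659 and 70049 in neutrophil replicates 1 to 4 and 28999.5, 24229, 24155 and 15726 in macrophage replicates 1 to 4 (log2 difference -1.77, adjusted p = 0.000329), and with quantile scaling its adjusted p was 0.348.

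The difference between the cell types was then compared with that in treated tumours by an interaction term, which uses the same control libraries. With cisplatin and control antibody, 11 of 9285 genes (0.118%) had an interaction at an adjusted p under 0.05, 6 (0.0646%) toward macrophages and 5 (0.0539%) toward neutrophils, and 708 (7.63%) had an unadjusted p under 0.05. With the combination, 2 of 9181 genes (0.0218%) had one, 0 (0%) toward macrophages and 2 (0.0218%) toward neutrophils, and 795 (8.66%) had an unadjusted p under 0.05. The cisplatin-treated mice were killed 1 day after the second injection, not at a tumour size, so treatment and endpoint cannot be told apart.

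None of the 11 and none of the 2 genes had a single possible decimal place in all libraries of the 4 groups, and 0 and 1 of them were called when places were restored without the groups, 5 and 2 when every value was given its most probable place and 11 and 2 with a looser tie between the groups. Elmo1, an adaptor that drives the engulfment of dying cells, was at 308, 334, 278 and 225 in macrophage replicates 1 to 4 and 241, 282, 235 and 228 in neutrophil replicates 1 to 4, with no difference called in control tumours (adjusted p = 0.342, but 0.00569 and 0.00278 with quantile and same-total scaling). Under the combination its mean was 96.5 ± 17.3 (SD, n = 2) in macrophages and 316 ± 74.8 (SD, n = 4) in neutrophils, an interaction of -1.89 (SE 0.28, adjusted p = 0.00383). The macrophage-neutrophil difference of Csf1r had an interaction of 0.65 (adjusted p = 0.72) with cisplatin and of -0.54 (adjusted p = 0.751) with the combination, and neither passed.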

How the data were processed

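RNA of sorted tumour macrophages and neutrophils was sequenced, and a single table of the series was used. Per the submitters' processing notes the tools were TopHat2 2.0.11, CASAVA 1.8, DESeq2, R 3.3.1 and Partek 6.6, with the mouse build mm10. The notes tie no tool to a step, and no source used here gives the strand setting of the counting, so overlapping and antisense genes cannot be told apart. The deposited values are a signal, reads that the authors divided by a size factor for every library, with 1 as the lowest value listed. Labels alone set the groups.

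Values of 1000 and above were whole multiples of what 1 read is worth in their library. Of 269892 values, 245864 (91.1%) had a form in which a decimal point may be missing. The place of the point had to give whole reads, and where several places did, it was weighed with a negative binomial model that ties together the means of a cell type's 4 groups. Places with a probability under 0.95 were left out (4508 of 79968 values in the 8 control libraries). A looser tie was used first and was judged to have misplaced a whole group of 1 gene, from the values of that gene in the other macrophage groups. The tighter tie was therefore chosen after seeing the data, and the looser tie is an added alternative.

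Genes at 10 or more in at least 2 of the 8 control libraries were tested. The fit used limma 3.58.1 (R 4.3.3) on the log2(value + 1) scale, with 8 group means over 27 libraries, eBayes with a trend, two-sided p-values, Benjamini-Hochberg adjustment over all genes tested and a threshold of 0.05. A missing value dropped that library from the gene's fit. Decoding and test were tested on made-up libraries with known answers. Of kept control values in a first set, 0.0707% in macrophages and 0.1037% in neutrophils were wrong. This set was drawn from a negative binomial model around the decoded group means, so it cannot show where that model misfits. For the real control values the model itself expected 0.201% of the kept ones to be wrong. In a second set the cell types were alike except for 200 genes. There 17 of 155 calls between the control groups were false, and 53% of 2-fold and 85% of 4-fold changes were recovered. For the cisplatin and combination interactions 16 of 95 and 15 of 83 calls were false. In each comparison the false share was above the 0.05 that the threshold aims at. The real cell types differed at many more genes than these made-up ones, so the shares need not hold there. Of 2-fold changes 15% and 10% were recovered, and of 4-fold changes 64% and 58%.

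The text names the 6 given markers, the 15 genes each way with the largest difference among those called, not overlapping, with all 8 values kept and a mean log2 level of at least 5, the 5 members with the smallest p of each list, the 5 genes with the most reads in each cell type, and up to 5 genes each way with the smallest interaction p. Values are given for 139 genes, a selection made with the values in view, and other list members are named only by direction. Trp53 is outside the rule, and some genes of the rule and lists are not reported here. The members of the comparison and the 47 gene lists were chosen with earlier results of these data known. Lists are described by counts and medians, with no set test. Promoters are from RefSeq (GRCm38.p6). Alternatives changed the pseudocount, filter, scaling, weights, threshold, decoding, the tool (limma-voom) and the libraries in the fit, and 2 were added after seeing the data, the looser tie and list counts without macrophage replicate 3.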

Additional observations from a re-analysis of the deposited data

Results flagged for a closer look

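A single library lay far from the other 3 of its group in 13 of 244 sets of 4 values tested for the genes of the report. The measure was the ratio of its gap to the range. Its limit flags about 1 in 20 sets of unselected normal values, but these genes were chosen with their values in view. Whether chance alone gives this share was not tested. Macrophage replicate 3 lay far for Mrgpra2a (12.4 against 1 in each other), Il18rap (12.4 against 2.75 to 3.91 in the others), Gpr84 (39.9 against 5.02 to 8.11), Pglyrp1 (8.95 against 1 in each other) and Prok2 (4.82 against 1 in each other), all of them genes higher in neutrophils. For Mrgpra2a, Pglyrp1 and Prok2 the others were all at the lowest listed value. Any higher value is flagged there whatever its size, and the 1 in 20 does not apply. Macrophage replicate 3 also had the highest summed level of neutrophil markers among the macrophage libraries, and the part of that in these values was not tested.

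The other far libraries were neutrophil replicate 3 for S100a8 (9738 against 4006 to 4884) and Rn45s (229270.0 against 185718 to 191466), neutrophil replicate 1 for Tnfrsf1a (244 against 378 to 403) and Selplg (555 against 804 to 840.0), neutrophil replicate 2 for Bcl2l11 (2754 against 2235 to 2276), macrophage replicate 1 for Cox5a (140.1 against 259 to 277), macrophage replicate 2 for Msr1 (2954 against 1563 to 1702) and macrophage replicate 4 for Ncf1 (205 against 178 to 182).

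By the interaction term, the macrophage-neutrophil difference was called unlike that of control tumours for the following genes. With cisplatin it moved toward neutrophils for Mmp9, by -3.79 (SE 0.56, adjusted p = 0.00718). Only 2 control macrophage values of Mmp9 were kept, and its means were 235 in control macrophages, 1272 in control neutrophils, 20.7 in cisplatin macrophages and 1657 in cisplatin neutrophils. The difference moved toward neutrophils for Klhl6 by -3.10 (SE 0.5976, adjusted p = 0.0325), Nars2 by -2.82 (SE 0.53, adjusted p = 0.0325) and Wbp5 by -2.48. Of Klhl6 and Nars2 only 2 cisplatin neutrophil values each were kept. The neutrophil means of Klhl6 were 103 in control and 1033 in cisplatin tumours. Only 1 cisplatin neutrophil value of Wbp5 was kept, so no test is given for it here, although it is counted among the calls. The difference moved toward macrophages for Nubp1 by 2.36 (SE 0.44, adjusted p = 0.0309), Nhsl2 by 2.34 (SE 0.43, adjusted p = 0.0309) and Alox5 by 2.26 (SE 0.44, adjusted p = 0.0342). The means of Alox5, which makes leukotriene precursors, were 13.5 in control macrophages, 175 in control neutrophils, 132 in cisplatin macrophages and 341 in cisplatin neutrophils. With the combination it moved toward neutrophils for Elmo1 by -1.89 (SE 0.28, adjusted p = 0.00383) and for Syf2, a splicing factor, by -2.46 (SE 0.41, adjusted p = 0.0147). Each of these genes had values with more than one possible decimal place, and a wrong place moves a value by a factor of 10 or more. Of the 11 cisplatin calls and the 2 combination calls, 0 and 1 were also called when decoded without the groups. With limma-voom 1 and 2 were.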

How the results depend on the processing

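Calls of control macrophages against control neutrophils are given as higher in macrophages and higher in neutrophils. They were 4144 and 1480 with the same total per library, 1127 and 1582 with a stricter filter (fewer genes tested), 150 and 343 among genes with a single decimal place in the 8 libraries, 301 and 808 against a 2-fold difference and 1705 and 1883 at a threshold of 0.01. Decoded without the groups they were 2059 and 1838, with limma-voom 2418 and 2368 and with the looser tie 2571 and 2351; 3871, 4491 and 4912 of these calls were shared with the reported ones in direction. Leaving out 1 library gave 2191 to 2417 and 2161 to 2277. The interactions were less stable. Toward macrophages and toward neutrophils, the cisplatin calls were 1 and 8 with a pseudocount of 10, 1 and 3 with the stricter filter, 1 and 2 without the groups, 1 and 1 with limma-voom, 0 and 1 at 0.01, 6 and 1 with quantile, 5 and 3 with same-total scaling, 5 and 2 with array weights, 7 and 2 with the most probable place and 7 and 6 with the looser tie, and 0 to 6 and 1 to 13 leaving out 1 library, the fewest without cisplatin macrophage replicate 3, cisplatin neutrophil replicate 2 or control neutrophil replicate 2 or 3, and the most toward neutrophils without cisplatin macrophage replicate 2. The combination calls were 1 and 2 with no filter, 19 and 15 with quantile, 0 and 0 with same-total scaling, 17 and 29 with array weights, 6 and 3 without the groups, 3 and 11 with the most probable place, 2 and 8 with limma-voom, 0 and 1 at 0.01 and 1 and 2 with the looser tie, and 0 to 7 and 0 to 10 leaving out 1 library, the fewest without combination macrophage replicate 1 and the most without control macrophage replicate 4. Apart from the construction of the filters and thresholds, the cause was not tested. Of the genes named with values only Rn45s, which did not pass, changed sign, to 0 with quantile and 0.17 with same-total scaling. Against a 2-fold difference 26 of these genes no longer passed. No paired analysis was possible because the labels number no replicates. The planned edgeR alternative was not run. The deposited values are not counts, and of the tests that read counts only limma-voom was applied, to the reads restored by the decoding. With 4 libraries a group and values listed down to 1, differences of the lowest genes depend on the pseudocount.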
